A study of Caenorhabditis elegans with 20 samples.

Results

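The sarcomere genes myo-3, ttn-1, dim-1 and act-3 were followed across all samples of a microarray study of Caenorhabditis elegans messenger RNAs bound by AIN-1 and AIN-2. They were taken by gene symbol from the array's probe table, in which each had 1 feature, so that 4 of the 17461 features with a single gene (23232 features in all) are described. They were chosen by these same values, because the first 3 tended to be higher in the AIN immunoprecipitates than in total RNA and act-3 lower. Their values over the 7 groups are therefore given as a description, with no p-value.

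The tested groups were RNA from immunoprecipitates (IPs). AIN-1 IP was made with AIN-1 antibody from wild-type N2 worms (n = 3), beside preimmune IP from N2 worms (n = 3) as its control. AIN-2::GFP IP came from a line named as a single-copy integrated AIN-2::GFP line (n = 3), and its control, GFP IP, came from an injection line in which the ain-2 promoter drives GFP by itself (n = 3). RNA of whole lysates was taken from the AIN-2::GFP line (n = 3), the promoter GFP line (n = 3) and N2 (n = 2). All worms were of mixed stages, and each transgenic group rested on 1 line. AIN-1 and AIN-2 are the worm's GW182-family proteins, which bind the microRNA Argonautes, and the study asked which mRNAs these complexes hold.

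The sarcomere is the contractile unit of striated muscle, in which myosin thick filaments slide along actin thin filaments. In the worm's body wall the thick filaments are anchored at M-lines and the thin filaments at dense bodies, and both structures attach the muscle cell to the cuticle through integrin complexes. The gene myo-3 encodes myosin heavy chain A, which lies in the middle of body-wall thick filaments, and ttn-1 encodes a giant titin-like kinase of muscle. The gene dim-1 encodes an immunoglobulin-domain protein near the dense bodies, known as a suppressor of the muscle defects of unc-112 mutants. The gene act-3 encodes an actin and lies in a cluster with act-2 and act-1, which follow it in the RefSeq gene table.

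Values below are normalized signal: spot intensity in units of the sample's mean, after quantile normalization across the 20 samples. A sample's background limit was the median plus 2 median absolute deviations of 1277 chemoreceptor features, which are expressed in few cells. The control IPs were dim, with a mean of 9 to 47 scanner units in preimmune IP samples and of 370, 46 and 12 in GFP IP replicates 1, 2 and 3, against 241 to 907 in every other sample. The share of gene features above the limit was 10.2% to 28.2% in preimmune IP, 54.8%, 27.3% and 25% in the GFP IP replicates, and 45.6% to 61.8% in all other samples. In preimmune IP replicate 1 the raw spots of myo-3, ttn-1 and act-3 held 4, 3 and 14 scanner units and that of dim-1 held -1. In GFP IP replicate 3 the myo-3 spot held 3 units. Low values of these 2 samples are thus near the resolution of the scan. Several differences and ratio shifts that rest on them are given without them too. The spots of cdc-42 and asp-6 also set samples apart: all samples of AIN-1 IP and preimmune IP had them above the limit, as had replicate 1 of AIN-2::GFP IP and GFP IP, and no other sample. These 8 samples are called an array set here, which is known from the data and not from the labels.

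The thick filament myosin gene myo-3 was brightest in the AIN-1 IP. Its normalized signal was 6.61, 5.75 and 5.16 in AIN-1 IP replicates 1, 2 and 3, against 2.39 and 2.25 in N2 total RNA. The preimmune IP held 0.728, 1.35 and 1.57, the first of these below the background limit. Every AIN-1 IP sample lay above every preimmune and N2 sample, and every preimmune sample lay below both N2 samples. In the other AIN complex, AIN-2::GFP IP, myo-3 reached 6.17, 4.99 and 1.64, against 1.01, 0.800 and 0.529 in total RNA of that line. In GFP IP it was 1.26, 0.874 and 0.157, the last below the limit, against 1.07, 0.685 and 0.637 in total RNA of the promoter GFP line. The AIN-2::GFP IP samples all lay above their total RNA, with replicate 3 the lowest, whereas GFP IP samples lay on both sides of theirs. By mean log2 signal the order was AIN-1 IP, AIN-2::GFP IP, N2 total RNA, preimmune IP, promoter GFP total RNA, AIN-2::GFP total RNA and GFP IP. Of these neighbours, N2 total RNA and preimmune IP alone did not overlap.

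The titin-like gene ttn-1 was also brightest in the AIN IPs, but its preimmune samples spread widely. It had 3.96, 3.02 and 2.63 in AIN-1 IP, against 1.31 and 0.772 in N2 total RNA. In preimmune IP it had 0.446, which was below the limit, 3.12 and 2.02. Preimmune replicate 2 thus lay inside the range of the AIN-1 IP. The AIN-2::GFP IP held 4.41, 2.85 and 5.72, against 2.21, 1.96 and 2.03 in total RNA of the same line. In GFP IP it had 2.56, 2.48 and 1.89, against 2.38, 2.53 and 1.92 in promoter GFP total RNA, and those groups overlapped almost entirely. N2 total RNA was the lowest of the 7 groups by mean log2 signal. In the order of levels AIN-2::GFP IP came first and AIN-1 IP next, and between AIN-1 IP and the group after it, GFP IP, the samples did not overlap.

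The attachment gene dim-1 had 3.55, 4.99 and 3.20 in AIN-1 IP, against 1.76 and 2.24 in N2 total RNA. Preimmune IP held 1.12 and 1.57 in replicates 2 and 3, and replicate 1 stood at the floor of 0.0187, where negative and lowest values were set. All AIN-1 IP samples exceeded all N2 samples, and all preimmune samples were below them. The AIN-2::GFP IP gave 3.35, 3.13 and 1.91, against 1.43, 1.09 and 0.983 in total RNA of the line. GFP IP gave 1.20, 1.16 and 1.51, against 1.81, 1.76 and 1.47 in its total RNA. Again the AIN-2::GFP IP stood clear of its total RNA, and the GFP IP overlapped with its own. Each group of dim-1 overlapped with the next in the order of means, which ran from AIN-1 IP and AIN-2::GFP IP at the top to preimmune IP at the bottom.

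The actin gene act-3 had the opposite profile. Its signal was 4.76, 3.83 and 5.15 in AIN-1 IP, against 35.5 and 33.3 in N2 total RNA. Preimmune IP held 4.80, 10.4 and 13.1, also below both N2 samples. Its signal in AIN-2::GFP IP was 7.55, 6.07 and 3.77, against 16.0, 13.4 and 13.7 in total RNA of that line. GFP IP samples, at 19.4, 13 and 15.4, overlapped with promoter GFP total RNA at 19.2, 15.5 and 17.4. Both AIN IPs thus lay wholly below the total RNA of their strain, and act-3 was above the limit in every sample. It was the brightest spot of the 4 in all total RNA, preimmune IP and GFP IP samples, although spots of different genes cannot be set against each other as amounts of mRNA.

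**Figure D1:**
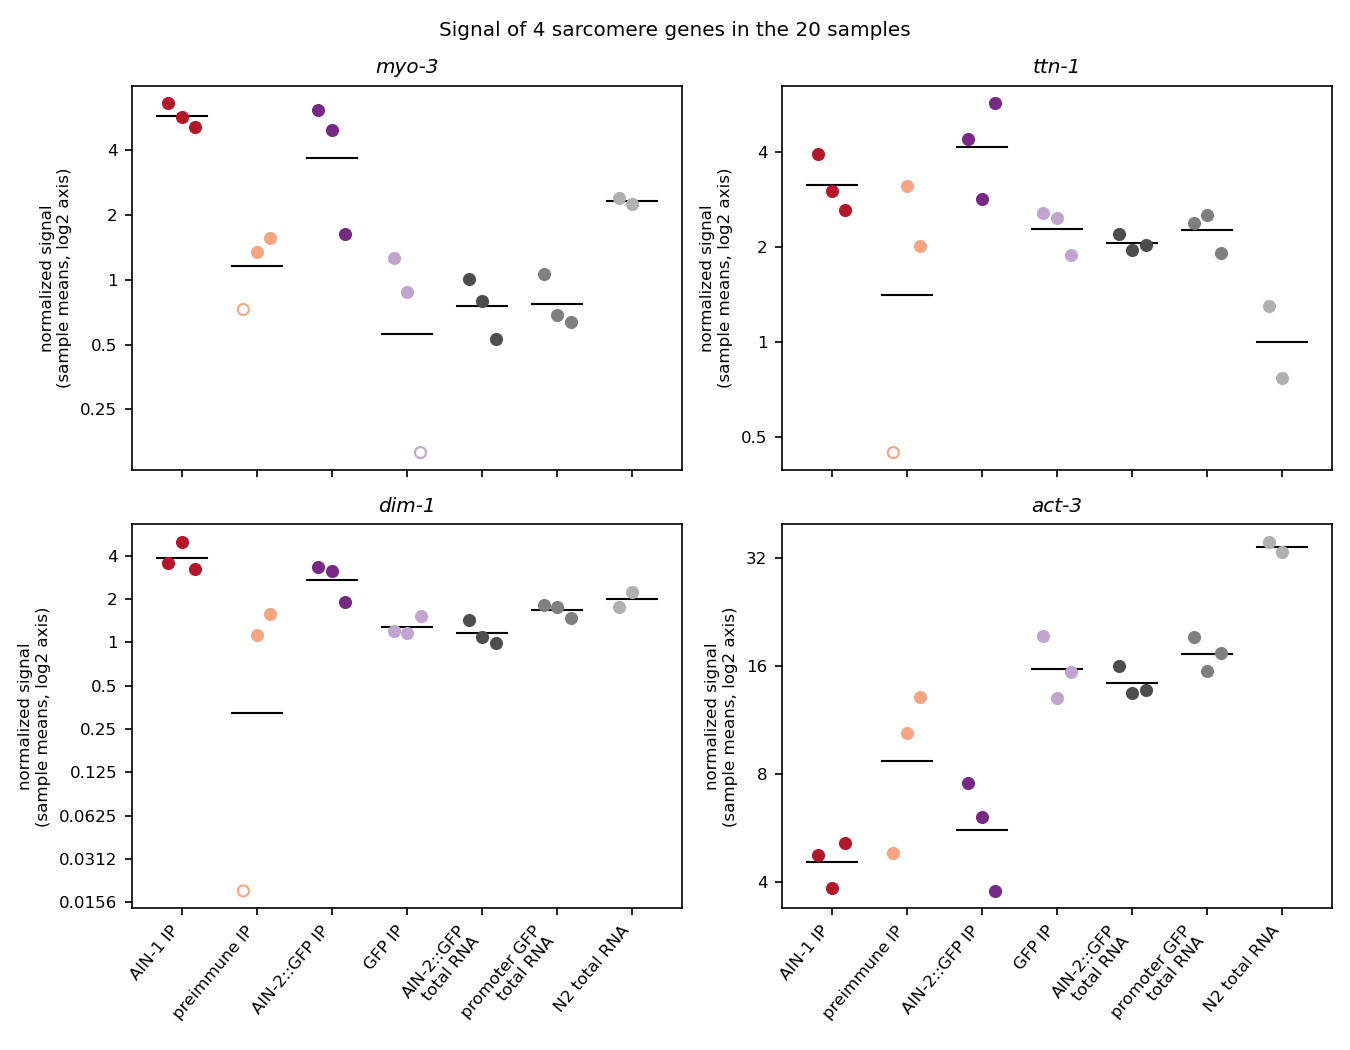
Normalized signal (sample means, log2 axis) of myo-3, ttn-1, dim-1 and act-3 in each sample of the 7 groups, one panel a gene; points are samples, open circles lie below the sample's background limit and black lines are means of the log2 values. For myo-3, ttn-1 and dim-1 the AIN-1 IP and AIN-2::GFP IP points stand above those of their total RNA, and for act-3 below.

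The AIN-1 IP was set against N2 total RNA to ask what the complex held relative to the level in the same strain. Differences are in log2 units with the dye as a covariate, ± the standard error (SE) of the fit over all 20 samples, and should be read beside the median of the 12222 tested features, which was 0.11 here. The difference was 1.31 ± 0.77 for myo-3 (2.49-fold), 1.56 ± 0.59 for ttn-1 (2.95-fold) and 0.92 ± 1.24 for dim-1 (1.89-fold). It was -2.92 ± 0.48 for act-3, which was 7.57-fold lower in the IP. The other 3 genes had every IP sample above every N2 sample, as had 34.6% of all features, and act-3 had every IP sample below, as had 31%. When each array was only scaled to its mean, as deposited, the median of all features moved to -1.02, and the differences were 1.25, 1.25, 0.76 and -2.55 for the 4 genes in the same order.

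Against the mean of the 6 transgenic total RNA samples the differences of the AIN-1 IP were 2.92 for myo-3, 0.45 for ttn-1 and -1.79 for act-3. With the array set as a covariate, which is informed by replicate 1 of AIN-2::GFP IP and GFP IP, myo-3 stood at -0.12, ttn-1 at 1.38, dim-1 at 0.76 and act-3 at -3.48.

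The preimmune IP, the control for nonspecific recovery, was set against the same N2 samples, so its differences share them with those of the AIN-1 IP. They were -1.0 ± 0.77 for myo-3, 0.58 ± 0.59 for ttn-1, -2.59 ± 1.24 for dim-1 and -1.98 ± 0.48 for act-3, with a median of -0.41 over all features. For myo-3, dim-1 and act-3 every preimmune sample lay below both N2 samples, as for 25.3% of all features. Without preimmune replicate 1 the dim-1 difference was -0.58 and that of ttn-1 was 1.34. The ttn-1 value turned to -0.27 under mean scaling, where the median of all features was -1.29, and to -0.52 against the 6 transgenic total RNA samples. Against the transgenic samples myo-3 was at 0.60 and act-3 at -0.85.

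Set directly against the preimmune IP, the AIN-1 IP differed by 2.31 ± 0.70 for myo-3 (4.97-fold), 3.51 ± 1.12 for dim-1, 0.98 ± 0.53 for ttn-1 and -0.94 ± 0.43 for act-3, beside a median of 0.42. The dim-1 value rested largely on the preimmune sample at the floor and was 1.58 without it. The ttn-1 value was 0.27 without that sample and 0.26 with cyclic loess normalization. For act-3 the value was -0.01 under mean scaling (median of all features 0.20) and -1.60 with cyclic loess (median 0.04), so a direction against the preimmune IP depends on the scaling. For myo-3 and dim-1 every AIN-1 IP sample exceeded every preimmune sample, which was so for 23.1% of all features, whereas ttn-1 and act-3 overlapped.

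The AIN-2::GFP IP against total RNA of its line gave the same signs as the AIN-1 IP. The genes were chosen by their values in the AIN IPs, so the shared signs follow from that choice and carry no weight. The differences were 2.30 ± 0.69 for myo-3 (4.91-fold), 1.01 ± 0.52 for ttn-1 (2.01-fold), 1.24 ± 1.10 for dim-1 (2.36-fold) and -1.36 ± 0.43 for act-3 (2.57-fold lower). The median of all features was 0.00. Each of the 4 had samples that did not overlap between the groups, as had 21.3% of features on the higher side and 25.7% on the lower.

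GFP IP against its own total RNA gave -0.48 ± 0.69 for myo-3, 0.02 ± 0.52 for ttn-1, -0.39 ± 1.10 for dim-1 and -0.14 ± 0.43 for act-3, with a median of -0.22. All 4 overlapped with total RNA. Without GFP IP replicate 3, in which myo-3 was below the limit, the myo-3 difference was 0.47. The AIN-2::GFP difference exceeded that of GFP by 2.77 ± 0.97 for myo-3, 0.99 ± 0.74 for ttn-1 and 1.62 ± 1.56 for dim-1, and the act-3 value was -1.23 ± 0.60. Without GFP IP replicate 3 the myo-3 value was 1.83.

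**Figure D2:**
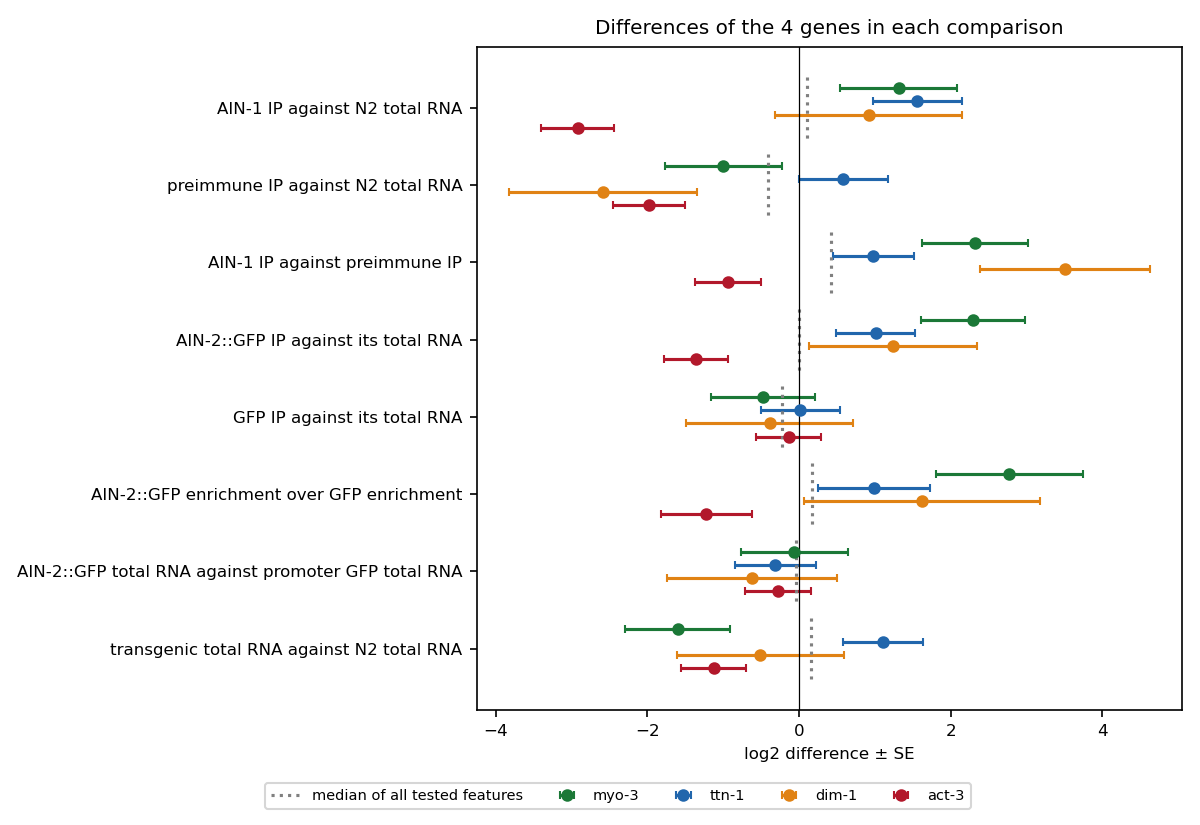
Log2 difference of each gene in the 8 comparisons, with bars for the standard error of the limma fit and a dotted grey line at the median of all tested features. In the AIN-1 IP and AIN-2::GFP IP comparisons with total RNA, myo-3, ttn-1 and dim-1 lie above 0 and act-3 below, and in the GFP IP all 4 lie within 0.5 of 0.

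The study itself ranked each feature's IP to total ratio among all features of an IP replicate, with 100 the highest percentile. The ranks below follow this with the deposited values, the lowest set to a floor, but only among the tested features. In the AIN-1 IP myo-3 ranked at 91.9, 89.9 and 87.2, ttn-1 at 93.6, 89.5 and 87, and dim-1 at 81.6, 89.4 and 78.2, while act-3 ranked at 20.7, 17.8 and 18.8. In the preimmune IP myo-3 ranked at 45.3, 31 and 43 and dim-1 at 2.07, 30.1 and 47.4, but ttn-1 at 52.4, 82.7 and 77.8. The preimmune ranks of act-3 were 26.5, 23.2 and 38.2, so it ranked low in the control IP too. In contrast, ttn-1 was in the upper part of the ranking in preimmune replicates 2 and 3 as well. In AIN-2::GFP IP the ranks were 97.8, 97.4 and 83.8 for myo-3, 86.3, 76.9 and 93.4 for ttn-1, 91.1, 91.1 and 75.4 for dim-1 and 36, 38.1 and 13.8 for act-3. In GFP IP the ranks of myo-3 were 85.6, 46 and 25 and those of act-3 were 81.5, 24.7 and 46.0, a scatter that spans most of the scale. Under the study's criteria (a rank above the mean rank at a p under 0.01, a signal above background and no such rank in the control IP), with the chemoreceptor limit in place of empty spots, myo-3, ttn-1 and dim-1 met the AIN-1 definition, which 19% of features did. For AIN-2 myo-3 and ttn-1 met it, as did 12.4% of features. These criteria use the same values that chose the genes.

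**Figure D3:**
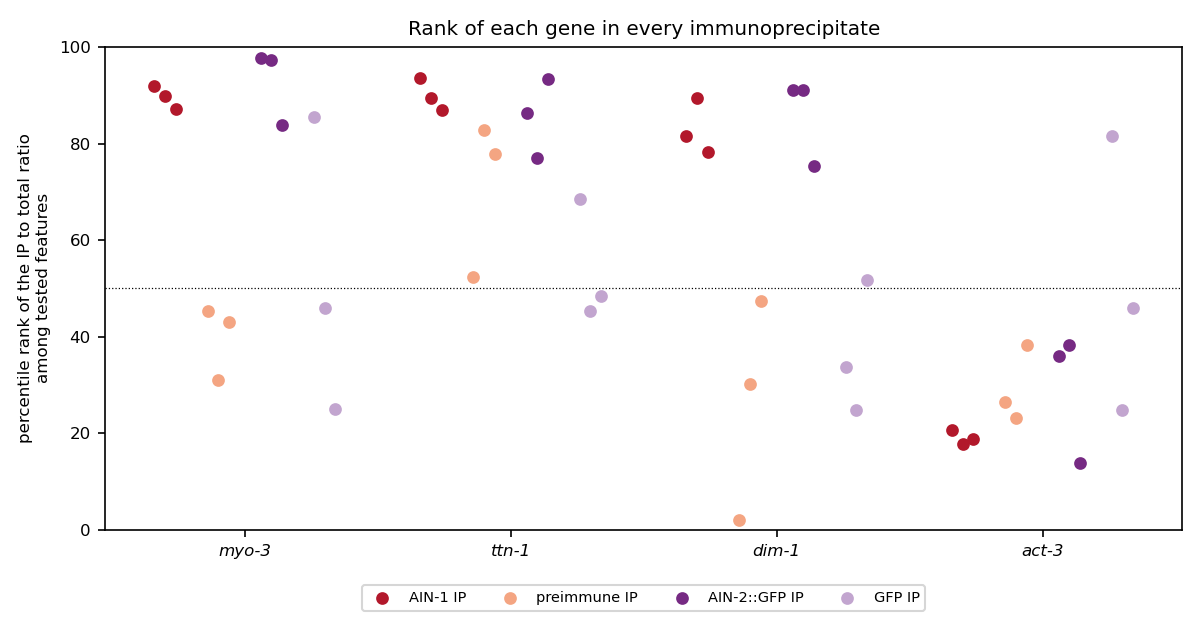
Percentile rank of each gene's IP to total ratio among the tested features in every IP replicate, with a dotted line at the 50th percentile. In the AIN-1 IP myo-3, ttn-1 and dim-1 rank between 78.2 and 93.6 and act-3 between 17.8 and 20.7, and in the preimmune IP act-3 ranks between 23.2 and 38.2.

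Since the 3 genes and act-3 are read in the same sample, the ratio of their deposited values, before quantile normalization, does not depend on that sample's scaling. For spots near background, as in preimmune IP replicate 1 and GFP IP replicate 3, the ratio still depends on how dim the scan was. The ratios here are on the deposited scale, with negative values set to a floor, and the same shifts on the normalized scale follow them. In the AIN-1 IP the log2 ratio of myo-3 to act-3 was 0.52, 0.61 and 0.00, so that the spots were about equally bright, against -3.35 and -3.50 in N2 total RNA. In preimmune IP it was -1.81, -2.98 and -3.21. In AIN-2::GFP IP it was -0.29, -0.25 and -1.29, against -3.84, -3.96 and -4.44 in total RNA of the line. In GFP IP it was -4.39, -3.82 and -5.80, against -4.39, -4.43 and -4.77 in its total RNA. No AIN IP sample overlapped with any sample of another group. Since myo-3 was chosen as high and act-3 as low in the AIN IPs, this separation comes with the choice and carries no weight. A share over all features was not computed for ratios. The mean ratio of myo-3 to act-3 shifted by 3.80 log2 units in AIN-1 IP and by 3.47 in AIN-2::GFP IP relative to the total RNA of the strain, beside 0.76 in preimmune IP and -0.14 in GFP IP. Without preimmune replicate 1 the preimmune shift was 0.33, and without GFP IP replicate 3 the GFP shift was 0.43. On the normalized signal the shifts were 4.24 in AIN-1 IP and 3.66 in AIN-2::GFP IP, beside 0.98 in preimmune IP and -0.34 in GFP IP (0.56 without replicate 3).

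For ttn-1 the corresponding shifts of the ratio to act-3 were 3.89 in AIN-1 IP and 2.28 in AIN-2::GFP IP, beside 2.18 in preimmune IP and 0.15 in GFP IP. So the ratio of ttn-1 to act-3 shifted in the preimmune IP in the same direction as in the AIN-1 IP. For dim-1 they were 3.36 in AIN-1 IP and 2.44 in AIN-2::GFP IP, beside -0.94 in preimmune IP and -0.26 in GFP IP. The sign in the preimmune IP rested on replicate 1, which was at the floor, and the shift was 0.40 without it. On the normalized signal the AIN-1 and AIN-2::GFP shifts were 4.57 and 2.37 for ttn-1 and 3.87 and 2.60 for dim-1. In total RNA the deposited ratio of dim-1 to act-3 was -3.49 ± 0.11 in the AIN-2::GFP line, -3.45 ± 0.29 in the promoter GFP line (SD, n = 3 each) and -3.62 ± 0.16 in N2 (SD, n = 2). On the normalized signal it was -3.64, -3.37 and -4.12 in the same order, a wider spread. These ratios rest on the values that chose the genes and carry no test.

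**Figure D4:**
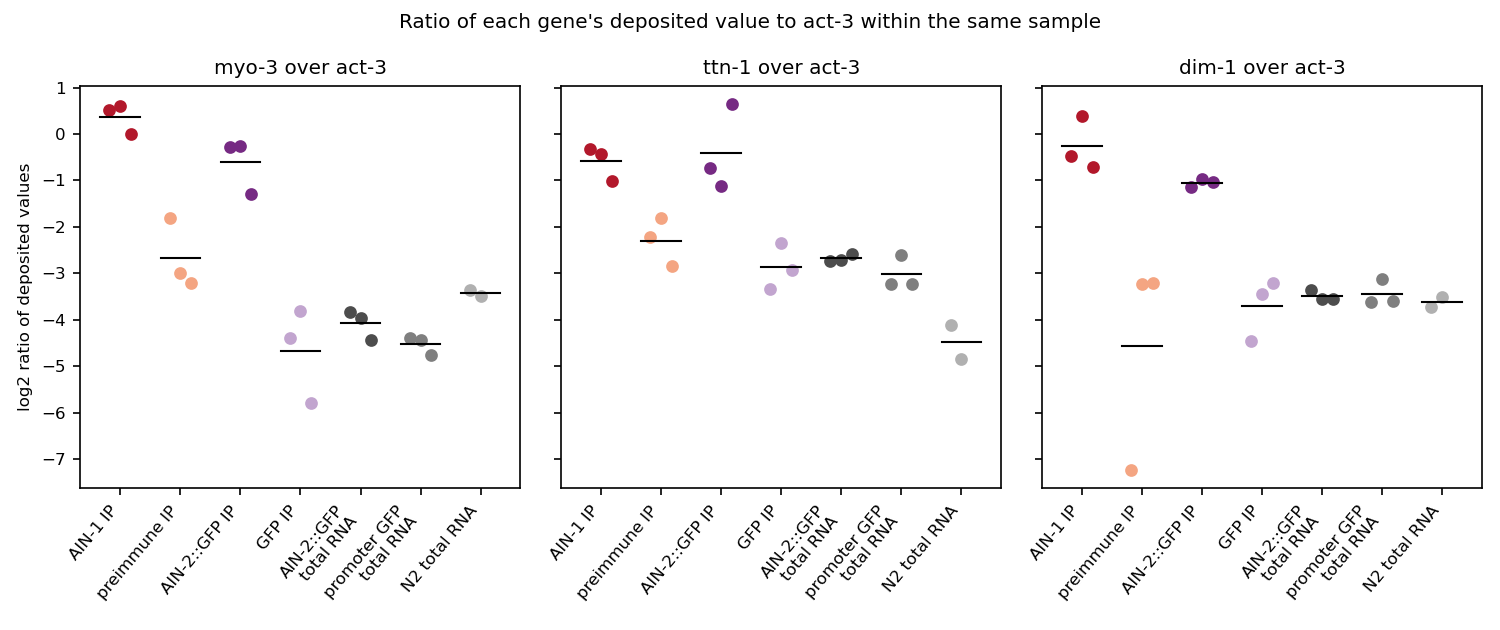
Log2 ratio of the deposited value of myo-3, ttn-1 and dim-1 to that of act-3 within each sample, by group; points are samples. The AIN-1 IP and AIN-2::GFP IP samples lie between -1.29 and 0.64 for the 3 ratios, above the samples of every other group. The genes were chosen by these values, so the separation carries no weight.

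The total RNA of the strains differed in these genes too. The mean of both transgenic total RNA groups differed from N2 total RNA by -1.60 ± 0.69 for myo-3, 1.11 ± 0.52 for ttn-1, -0.51 ± 1.10 for dim-1 and -1.13 ± 0.43 for act-3, with a median of 0.16. For myo-3 and act-3 every transgenic sample was below both N2 samples, as for 18.4% of features, and for ttn-1 every one was above, as for 24.1%. The AIN-2::GFP and promoter GFP totals differed from each other by at most 0.62 (dim-1, whose AIN-2::GFP samples all lay below the promoter GFP samples, as for 4.66% of features).

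Markers of other tissues moved with the strain. All 14 measured major sperm protein genes lay above 0 in transgenic against N2 total RNA, with a median difference of 3.28. By limma 2 of them rose past the threshold, or 14.3% of the list beside 1.04% of all features. Shared signal among the spots of this family was not checked, so the 14 genes may not be separate observations. The summed signal of the sperm genes was 43.0 to 106 in AIN-2::GFP total RNA, 77.9 to 140 in promoter GFP total RNA and 7.40 to 9.40 in N2 total RNA. No gene of the list was at the floor in every sample of a group. The germline list had a median of 0.62 with 11 of 14 genes above 0, and the hypodermis and cuticle list one of -0.67 with 2 of 14 genes passing the test, both lower. Their part in the strain differences of the sarcomere genes was not tested. In whole-worm RNA, fewer cells of a type and less RNA per cell cannot be told apart.

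Other muscle genes were examined in lists by role, which were written with earlier results of these data known. Of 83 such genes outside the 4, 57 were measured and 52 passed the low-signal filter. In the AIN-1 IP against N2 total RNA 5 rose and 8 fell (limma, adjusted p under 0.05 over all features), or 25% of the list beside 11.8% of all features, with a median of -0.11. With pairs of samples as a random block (same-numbered samples of paired groups, and both N2 samples) 4 rose and 4 fell. The thin filament genes among the falls were mup-2 (a troponin T), the troponin I genes tni-1 and tni-4, and the troponin C genes pat-10 and tnc-2. These 5 also fell in the preimmune IP, and their differences between AIN-1 IP and preimmune IP, from -0.70 to 0.60, did not pass the test. The other falls were the pharyngeal myosin genes myo-1 and myo-2 and the LIM-domain attachment gene unc-95. The rises were the attachment genes pat-6 and unc-97, the nicotinic receptor subunit gene lev-1, the channel gene unc-105 and the sarcoglycan gene sgca-1.

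The roles differed in where their genes lay. Of 13 tested thin filament genes 5 fell and 1 lay above 0, with a median of -1.83, and of 8 thick filament genes 2 fell, with a median of -1.41. Among 11 genes of dense body and M-line attachment 2 rose and 1 fell, with a median of -0.10. Among 12 genes of excitation and calcium handling 2 rose and 10 lay above 0, with a median of 1.19. The 5 dystrophin complex genes had a median of 0.88 with 1 rise, and none of the 3 muscle transcription factor genes passed the test, with a median of 2.37 (limma, unadjusted p under 0.05 for members of the whole muscle set: 11 higher and 12 lower). In this grouping act-3 (-2.92) lay on the side of the thin filament genes, whereas myo-3 (1.31) and ttn-1 (1.56) lay opposite to the median of the other thick filament genes. Under mean scaling, where all features had a median of -1.02, the medians were -2.38 for the thin filament, -1.12 for the thick filament, -0.64 for the dystrophin complex and 0.14 for excitation. The dystrophin median was also below 0, at -0.19, once the array set was a covariate. Against the transgenic total RNA (median of all features -0.06) they were -0.97 for the thin filament, -0.05 for the thick filament, 0.07 for attachment and 1.16 for excitation, so the low thick filament median was not seen there. The preimmune IP against N2 total RNA had medians of -2.04 for the thin filament, -1.45 for the thick filament, -0.81 for attachment and -0.24 for excitation. Low contractile gene medians were thus shared with the control IP. Between AIN-1 IP and preimmune IP the medians were 0.01, 0.02, 1.10 and 1.42 in the same order, beside 0.42 for all features. Whether the lists differ from one another was not tested.

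Among the named genes of this comparison lev-1 stood at 3.76 ± 0.76 (adjusted p = 0.00576), unc-105 at 1.95 ± 0.41 (adjusted p = 0.00709) and unc-97, an adaptor of integrin attachments, at 1.71 ± 0.38 (adjusted p = 0.00971). On the lower side pat-10 was at -3.0 ± 0.67 (adjusted p = 0.0107) and tnc-2 at -3.57 ± 0.87 (adjusted p = 0.0158). The gene unc-95 was not above background in any AIN-1 IP sample, and was at least 5.55-fold lower there than in N2 total RNA (adjusted p = 0.0129). All 13 calls of the list were lost without N2 total RNA replicate 1 and likewise without replicate 2, when 0 genes passed. Without AIN-1 IP replicates 1, 2 and 3 the counts were 8, 2 and 6, and 2 genes passed once the array set was a covariate.

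In the preimmune IP 15 of the 52 genes fell and none rose (28.8% of the list beside 13.1% of all features; 21 lower and 4 higher at an unadjusted p under 0.05), with a median of -0.80 beside -0.41. The count was 8 with the random block, 2 without N2 total RNA replicate 1, 1 without replicate 2 and 9 once the array set was a covariate. They included 7 thin filament and 4 thick filament genes, among them myo-2 at -5.42 ± 1.12 (adjusted p = 0.00671). The potassium channel gene twk-18 was at the floor in all preimmune samples and was called lower (adjusted p = 0.00193), and tni-1, below background in all of them, was at least 1.28-fold lower (adjusted p = 0.00805). In the direct comparison of the AIN-1 IP with the preimmune IP 5 genes rose and none fell (limma; 17 higher and 0 lower at an unadjusted p under 0.05), or 9.62% of the list beside 11.8% of all features, and 40 of 52 lay above 0, with a median of 0.84 beside 0.42. They were lev-1, at least 4.06-fold higher (adjusted p = 2.30e-04), twk-18 (adjusted p = 0.0012), pat-6 at 3.52 ± 0.70 (adjusted p = 0.00545), act-1 at 2.46 ± 0.65 (adjusted p = 0.0236) and uig-1 at 1.5 ± 0.46 (adjusted p = 0.0471). For twk-18 the mean signal in AIN-1 IP was only 0.264, and no least fold over the preimmune background limit could be set. Its call rests on preimmune values set to the floor, and its difference between AIN-1 IP and N2 total RNA was -0.13. The calls of lev-1, twk-18 and pat-6 held in all 14 alternatives, that of act-1 in 11 (not with cyclic loess or with AIN-1 IP replicate 2 or 3 left out) and that of uig-1 in 7. The count was 11 with the random block and 11 without preimmune replicate 3, 8 without preimmune replicate 2, 3 without AIN-1 IP replicate 2 or 3 and 10 under mean scaling.

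In the AIN-2::GFP IP against its total RNA 3 genes rose and none fell (7 higher and 2 lower at an unadjusted p under 0.05), or 5.77% of the list beside 5.51% of all features, with a median of 0.28. They were lev-1 at 4.25 ± 0.68 (adjusted p = 0.0021), called in all 14 alternatives, lev-8, another nicotinic receptor subunit gene, at least 2.94-fold (adjusted p = 0.0196, above background in 2 of 3 IP samples; lost without IP replicate 1 or 2 or total RNA replicate 1 or 3), and sgca-1 at 3.35 ± 0.84 (adjusted p = 0.0301), which lost the call without any 1 of the 6 samples. The role medians were -0.84 for the thin filament, with 2 of 13 genes above 0, -0.36 for the thick filament, 0.28 for attachment and 0.96 for excitation, with 11 of 12 above 0. In the GFP IP no muscle gene passed the limma test, as 0.0245% of all features did (3 higher and 1 lower at an unadjusted p under 0.05; 2 were lower, pat-2 and sgca-1, without GFP IP replicate 1), and the medians were -0.42 for the thin filament and -0.42 for excitation. Nor did any pass for the AIN-2::GFP enrichment over that of GFP, where 0.0245% of all features did (4 higher and 0 lower at an unadjusted p under 0.05); lev-1 passed with the random block, and lev-1 and sgca-1 without GFP IP replicate 1. Between the AIN-2::GFP and promoter GFP totals none passed, beside 0.00818% of all features (limma; 0 higher and 0 lower at an unadjusted p under 0.05). In transgenic against N2 total RNA myo-1 fell (-2.97 ± 0.57, adjusted p = 0.0216), 1.92% of the list beside 1.04% of all features, with a list median of -0.44, a call lost with the random block, without either N2 sample and without replicate 3 of either transgenic total RNA.

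**Figure D5:**
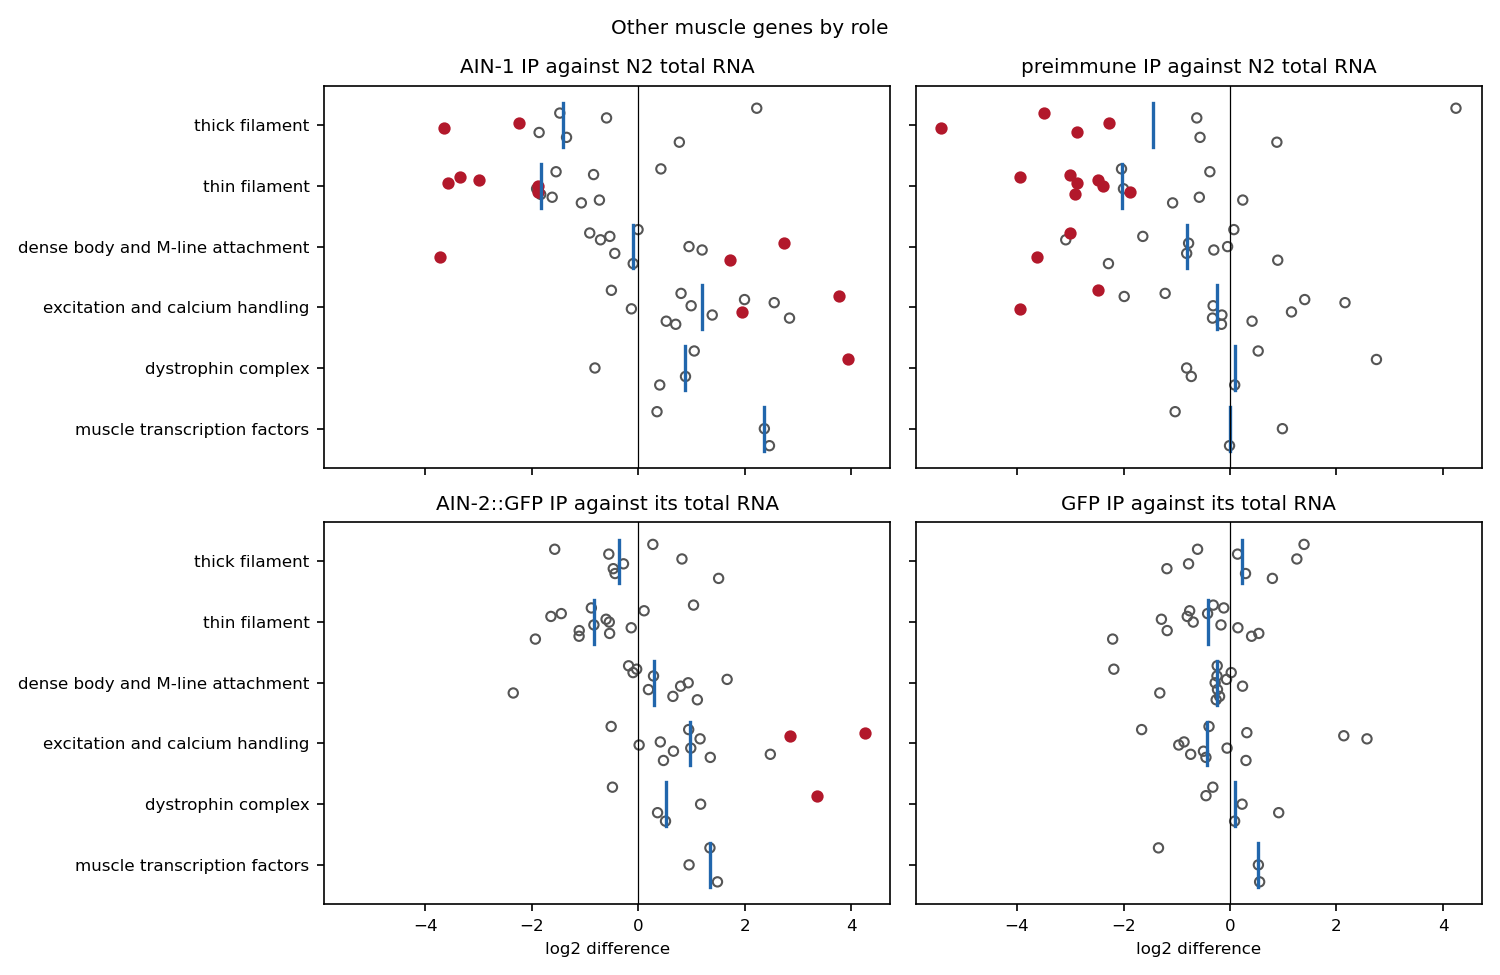
Log2 difference of each tested muscle gene outside the 4, by role, for the AIN-1, preimmune, AIN-2::GFP and GFP IPs against their total RNA; red points passed an adjusted p under 0.05 (limma) and blue lines are medians of a role. Thin filament genes lie mostly below 0 in both AIN IPs (medians -1.83 and -0.84), and excitation and calcium handling genes mostly above (1.19 and 0.96). Thin filament genes lie mostly below 0 in the preimmune IP too (median -2.04), where the excitation median is -0.24.

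By the study's criteria 14 of the 52 muscle genes (26.9%) were AIN-1 associated, beside 19% of all features, and 9 (17.3%) were AIN-2 associated, beside 12.4%. Asking instead for a call by limma both over total RNA and over the control IP left pat-6 and lev-1 for AIN-1 (7 genes at an unadjusted p under 0.05 in both) and none for AIN-2 (3 genes at an unadjusted p under 0.05 in both). The AIN-1 count was 1 without any 1 AIN-1 IP sample, 0 without either N2 sample and 1 with the random block. The AIN-2 count was 2 without GFP IP replicate 1 and 1 with the random block.

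Paralogs did not follow the 4 genes as a family. The gene unc-54, the main body-wall myosin, had 4.70, 7.06 and 4.01 in AIN-1 IP, against 13.1 and 14.1 in N2 total RNA, a difference of -1.35 ± 0.48 that missed the threshold (limma, adjusted p = 0.0821). Thus body-wall myosin genes myo-3 and unc-54 lay on opposite sides of their N2 levels in AIN-1 IP, with no overlap in either. Of all features, 34.6% lay wholly above N2 there and 31% wholly below. This contrast rests on both N2 samples, and unc-54 itself differed by -1.57 ± 0.43 between transgenic and N2 total RNA. Its AIN-1 IP samples overlapped with those of the transgenic totals (3.56 to 5.30). Adjusting for the array set put myo-3 at -0.12. In AIN-2::GFP IP unc-54 had 3.50, 3.96 and 2.27, against 4.35, 5.06 and 3.56 in total RNA of the line, and differed by -0.44 ± 0.43. The pharyngeal myosin genes fell in the AIN-1 IP: myo-1 by 2.25 on the log2 scale (adjusted p = 0.0329) and myo-2 by 3.65 (adjusted p = 0.0459), both calls being lost without any 1 of the 5 samples and against the transgenic total RNA. They also fell in the preimmune IP, with log2 differences of -2.27 for myo-1 (adjusted p = 0.0308) and -5.42 for myo-2 (adjusted p = 0.00671), and differed between AIN-1 IP and preimmune IP by 0.02 and 1.76, neither past the threshold. In AIN-2::GFP IP they differed by 0.82 and -0.28, neither past the threshold.

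Among actins, act-1 did not share the profile of its neighbour act-3. It had 42.6, 110 and 57.5 in AIN-1 IP, against 53.3 and 45.5 in N2 total RNA (0.42 ± 0.71, adjusted p = 0.769), and 7.42, 11.7 and 21 in preimmune IP. In AIN-2::GFP IP it had 124, 30.7 and 15.2, against 20.6, 20.6 and 15.8 in total RNA of the line, where replicate 1 stood far above the others. For act-2 the difference was -1.55 ± 0.61 in the AIN-1 IP (adjusted p = 0.118) and -0.88 ± 0.55 in AIN-2::GFP IP (adjusted p = 0.397). For act-5, an intestinal actin, it was -2.56 ± 0.88 (adjusted p = 0.0725) and -2.25 ± 0.79 (adjusted p = 0.113). Worm actin mRNAs are nearly identical, so spots of this family may share signal, and single actin values are uncertain. The spot of unc-89, another giant muscle kinase, lay below background in all samples of preimmune IP and of both transgenic totals and is not compared with ttn-1. The genes act-4 and unc-22 were not analysed here.

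Gene lists of other tissues were set beside those of muscle. In the AIN-1 IP against N2 total RNA 11.8% of all features passed the limma test, and their median was 0.11. The list medians were -1.77 for 14 hypodermis and cuticle genes (4 fell) and -0.93 for 12 intestinal genes (1 fell). They were -0.33 for 14 germline genes (2 fell) and -0.18 for 7 neuronal genes (2 fell). They were 0.10 for 14 major sperm protein genes (1 rose) and 0.19 for 8 non-muscle actin and myosin genes (1 fell). These signs turned under mean scaling, to -0.63 and -0.56, where the median of all features was -1.02. The sperm median was -0.35 with cyclic loess and -3.16 against the transgenic total RNA. In the preimmune IP against N2 total RNA 13.1% of all features passed, with a median of -0.41. The preimmune medians were -2.01 for hypodermis and cuticle (7 fell) and -1.66 for intestine (4 fell). They were -0.49 for germline (1 fell) and -2.44 for neurons (2 fell). For sperm the preimmune median was -1.57 (1 rose) and for non-muscle actin and myosin -0.62 (2 fell). The muscle genes outside the 4 had a summed signal of 164 to 231 in AIN-1 IP, 103 to 160 in preimmune IP and 218 to 225 in N2 total RNA. It was 120 to 253 in AIN-2::GFP IP and 122 to 146 in its total RNA, and 122 to 134 in GFP IP and 140 to 160 in its total RNA.

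Across the 20 samples the log2 signals of the 4 genes were related unevenly. Pearson's r was 0.70 for ttn-1 with dim-1, 0.47 for myo-3 with dim-1 and 0.35 for myo-3 with ttn-1. With act-3 it was -0.45 for myo-3, -0.39 for ttn-1 and 0.04 for dim-1. The samples share groups, dyes and brightness, so these values describe the profiles and carry no p. In preimmune IP replicate 1 the log2 signal of dim-1 was -5.74, against -0.03 to 2.32 in the other samples. The r values with dim-1 thus lean on that sample, in which ttn-1 was also below the limit. They were not computed without it. Among 7068 named features, the 3 whose profile was most like that of myo-3 were nrx-1 (r = 0.94), a neurexin, tig-2 (0.92), a TGF-beta family ligand, and mfsc-1 (0.91). For ttn-1 they were lin-1 (0.97), an ETS transcription factor, nipi-3 (0.94) and xbx-4 (0.94). For dim-1 they were rsu-1 (0.97), sqv-7 (0.96) and the proteasome subunit gene rpn-12 (0.95). These r values too lean on the floor value of dim-1 in preimmune IP replicate 1, and were not computed without it. For act-3 they were fat-2 (0.95), a fatty acid desaturase, and the ribosomal protein genes rpl-4 (0.95) and rpl-18 (0.94). No muscle list gene was among these 12.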

How the data were processed

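Per the labels' protocols, RNA of 20 samples in 7 groups was taken up in Trizol, amplified a single time and labelled in Cy3 or Cy5 dye flips; replicates were independent biological ones. Each deposited value is a linear spot intensity less background, which the authors divided by the sample's mean (read from the values: 100% became whole scanner units within 0.01). For the scanner and image software, nothing is given in the sources used here. No pair of samples had identical values. Of 23232 features 5771 were not in the probe table, and 880 genes had more than 1 feature, of which the brightest was used.

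Intensities were quantile normalized, set to at least the 10th percentile of positive values (0.0187, which held 32.5% of values), and log2 transformed. Gene features above the 30th percentile of mean signal (12222 features, 11812 genes) entered limma (version 3.58.1, R 4.3.3), with a mean for each group and the dye over all samples (12 residual degrees of freedom), two-sided, at a Benjamini-Hochberg adjusted p under 0.05. "At least N-fold" sets the brighter group's mean over the higher of background limit and signal in a group with no sample above the limit. The fit was tested on simulated data. Figures were drawn with Python 3.11.15. Alternatives were scaling, filter, floor, dye, array set, other total RNA, replicate blocks and leaving out each sample.

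The genes and the gene lists were chosen with earlier results of these data known. Named genes were, in each comparison, up to 3 list genes higher and 3 lower with the smallest adjusted p, the myosin, actin and giant kinase paralogs, and the 3 features most alike to each gene. Further genes (mup-2, tni-1, tni-4, pat-6, sgca-1, pat-2, uig-1, cdc-42 and asp-6 among them) were named after their values were seen. All 4 genes were found in the RefSeq gene table by Entrez ID. Same-numbered samples deviated together in AIN-1 IP with preimmune IP (r of deviations from group means 0.20 to 0.38), AIN-2::GFP IP with GFP IP (0.26 to 0.52) and both transgenic totals (0.59 to 0.77). The numbers were therefore taken to pair those samples, an inference from the data, since the sample titles name no pairs. A random block of these pairs was added after seeing the data, with both N2 samples as a further pair.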

Additional observations from a re-analysis of the deposited data

Results flagged for a closer look

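For myo-3, the AIN-1 IP lay above both N2 total RNA samples in every replicate, and the preimmune IP below both in every replicate, so that the differences of the groups from N2 ran opposite ways and lay 2.31 apart on the log2 scale. This opposition was not tested, since the gene was chosen from these values. Of all features 34.6% lay wholly above N2 in AIN-1 IP and 25.3% wholly below it in preimmune IP. The opposite signs depend on the N2 level, which both differences share. Against the 6 transgenic total RNA samples both were above 0 (2.92 in AIN-1 IP and 0.60 in preimmune IP). With the array set as a covariate both were below 0 (-0.12 and -2.44). The myo-3 spot held 4 scanner units in preimmune IP replicate 1.

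For dim-1 the same opposition was found, with the differences 3.51 apart, and it was not tested either. The dim-1 spot of preimmune IP replicate 1 was at -1 scanner unit, and without that sample the differences were 1.58 apart.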

How the results depend on the processing

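Of 480 alternative values of the 4 genes, 457 moved by less than the gene's residual spread in the fit and 23 by more. For dim-1 that spread includes the floor value of preimmune IP replicate 1, so even large shifts count as small. A move from 3.51 to 4.69 in AIN-1 against preimmune IP was 1 of these. Signs held in 9 of 14 alternatives for ttn-1 in GFP IP and 12 of 14 in preimmune IP. For myo-3 between the transgenic totals the sign held in 10 of 14. Counts of called muscle genes moved as follows; the cause was not tested. With the array set as a covariate, 2 (13 in the fit described) passed in AIN-1 IP against N2 total RNA, 9 (15) in preimmune IP and 0 (2) were AIN-1 associated. With same-numbered pairs and both N2 samples as a random replicate block, chosen after seeing the data, the counts were 8 in AIN-1 IP against N2, 8 in preimmune IP, 11 (5) in AIN-1 against preimmune IP, 1 (0) for AIN-2::GFP over GFP enrichment, 0 (1) in transgenic against N2 total RNA, 1 AIN-1 associated and 1 (0) AIN-2 associated. With a fixed replicate block they were 13, 14, 4 and 4 (3) in AIN-1, preimmune, AIN-1 against preimmune and AIN-2::GFP IP, and 0, 0, 0 and 1 in the others. Mean scaling gave 10 in AIN-1 against preimmune IP and 4 AIN-1 associated; no low-signal filter gave 8, 4 AIN-1 associated and 4 in transgenic against N2 total RNA; a floor at the 20th percentile gave 1 for AIN-2::GFP over GFP, 4 in transgenic against N2 total RNA and 1 AIN-2 associated. The study's criteria gave 14 AIN-1 and 9 AIN-2 associated. Leaving out 1 sample gave 0 to 8 in AIN-1 IP, 1 to 19 in preimmune IP, 3 to 11 in AIN-1 against preimmune IP, 1 to 2 in AIN-2::GFP IP, 0 to 2 in GFP IP, 0 to 2 for AIN-2::GFP over GFP, 0 to 1 in transgenic against N2 total RNA, and 0 to 2 for either associated set. With 2 or 3 arrays a group and control IPs near background, values of dim spots carry the widest error.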
